A study of Mus musculus with 2 samples.

Results

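The serpins are a family of protease inhibitors, and 61 serpin genes were read on 2 mouse liver arrays, 1 from wild-type animals and 1 from animals lacking Pnpla8. Members were all non-control probes whose array gene name begins with Serpin, which gave 78 probes on 87 spots among 39429 probes on 43020 spots. They stood for 61 of the 31042 genes with a probe. By the letter of the clade in the gene name, 24 genes belonged to clade a, 27 to clade b and 10 to clades c to i.

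Most serpins inhibit serine proteases by a suicide mechanism: the protease cuts an exposed reactive centre loop, the loop inserts into the body of the serpin, and both proteins stay locked together. Some members have lost this activity and serve as hormone carriers, such as thyroxine-binding globulin, or as chaperones. The liver secretes many serpins of clades a, c, d, f and g into plasma, where they restrain clotting, fibrinolysis, complement and neutrophil proteases, while clade b members mostly act inside cells.

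The study compared the livers of Pnpla8-/- mice with those of wild-type controls, both C57BL/6N. Pnpla8 encodes a calcium-independent phospholipase A2, and the title of the series concerns hepatic phosphatidylcholine breakdown as a source of choline and methyl groups. Each array carried Cy3-labelled material made from 200 ng of total RNA, and the design text states that equal amounts of liver RNA from 5 animals were pooled per array. The sample labels give the age as 6 weeks in both groups and the design text gives 8 weeks, and neither could be preferred. The sex of the animals, the deleted part of Pnpla8 and the cells in which it was deleted are not given in the sources used here.

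Each genotype was 1 pool on 1 array, so no difference had a replicate check and no p-value is given. The number of arrays limits the precision, and genotype, pool and array position cannot be told apart. Across the arrays 70.1% of wild-type and 65.6% of knockout non-control spots stood well above background, with none saturated. The probe for Pnpla8 read 144 units of processed signal in the wild-type pool and 4.45 in the knockout pool, where it was not well above background, a level at least 6.81-fold lower. Ratios below are log2 of knockout over wild type after each array was scaled to its 75th percentile, and a gene was measured when at least 1 of its probes was well above background on both arrays. Unscaled ratios lie 0.25 lower. The scanner's own error of a single serpin probe's log2 ratio had a median of 0.20 and ran from 0.20 to 0.41. Probes of a gene differed by a median SD of 0.095 over 4286 genes with several measured probes.

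Of the 61 serpin genes, 38 were measured on both arrays, 2 were well above background on the wild-type array alone, and 21 on neither. Among the 38 measured, 4 had knockout signal reduced by 2-fold or more, Serpina4-ps1, Serpina9 and Serpina7 among them. Only Serpinb1a was at least 2-fold higher, and 33 lay within 2-fold. The same shares over the 19951 genes measured were 1.85% for lower, 1.29% for higher and 3.14% for either direction. The median log2 ratio was 0.10 for the measured serpins and 0.04 for all measured genes, and the serpin median turned to -0.14 without scaling, when the median of all genes also moved by -0.25. As scaled here the median was 0.09 in clade a, 0.05 in clade b and 0.20 in clades c to i. Without scaling these medians were -0.16, -0.20 and -0.05. The share of serpins past 2-fold in either direction was thus 13.2% (5 of 38), while the share below 0, 16 of 38 (42.1%), was near the 43.1% of all measured genes.

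**Figure D1:**
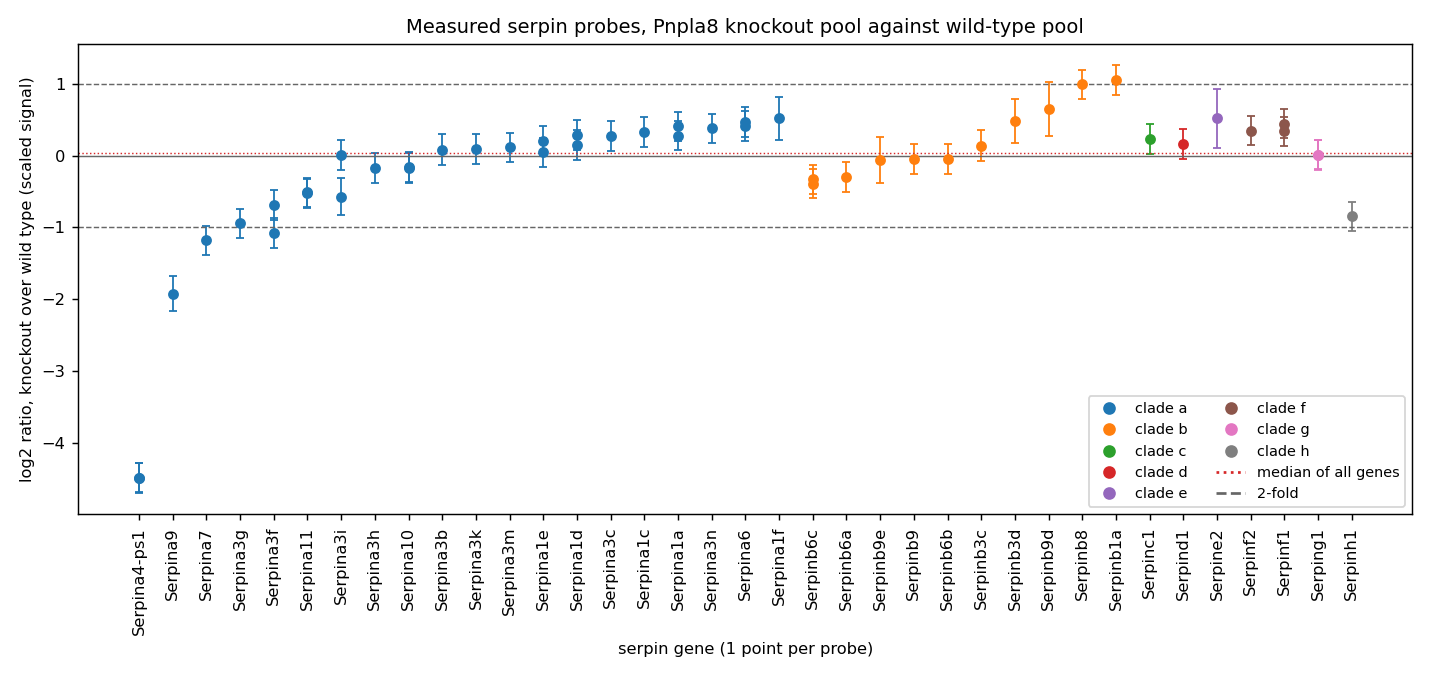
Log2 ratio of knockout over wild-type scaled signal (y axis) for measured serpin probes (1 point per probe, coloured by clade and sorted within it; bars show the scanner's error of the ratio, with 1 array per group; dashed lines mark 2-fold). The 2 Serpina4-ps1 points coincide at -4.48, well apart from the other members, and Serpinb1a at 1.05 lies above the upper line.

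The clade a gene Serpina4-ps1 was the outstanding member. It is the mouse counterpart of kallistatin, an inhibitor of tissue kallikrein, and carries a pseudogene symbol. Its signal was 9323 in the wild-type pool and 353 in the knockout pool, a log2 ratio of -4.48 or 22.3-fold lower. This was the lowest ratio of all 19951 measured genes, and the next gene among those that are not serpins stood at -3.58. Both of its probes were measured: one read 7651 and 289 units in the pools and the other 11361 and 430, with log2 ratios within 0.0055 of each other. They lie at 105325068 to 105325127 and 105325060 to 105325119 of chromosome 12 (mm9, the build named in the array file, plus strand). The probes are shown because they are not independent reads of the transcript: capitals mark the 52 bases in which they overlap, of which 51 are identical.
Serpina4-ps1 probe 1: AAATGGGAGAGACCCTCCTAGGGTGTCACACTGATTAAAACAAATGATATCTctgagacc
Serpina4-ps1 probe 2: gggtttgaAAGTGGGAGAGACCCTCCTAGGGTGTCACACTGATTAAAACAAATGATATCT
The pair thus repeats 1 measurement of nearly the same stretch. Under each of 12 alternative ways of scaling, correcting and summarising the arrays, Serpina4-ps1 remained more than 2-fold lower, and the log2 ratio ran from -4.25 with a normexp background to -4.73 without scaling. The Pnpla8 probe lies on the same chromosome, 59.9 Mb away.

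Serpina4-ps1 sits in the clade a cluster on chromosome 12, where 23 of the serpin genes had probes between 104854887 and 105651977 (mm9), a span of 797 kb. The 19 measured there, Serpina4-ps1 included, had a median of 0.09, and besides Serpina4-ps1 only Serpina9 was 2-fold lower or more. The nearest measured serpin on one side was Serpina9, placed at -90.2 kb, with a ratio of -1.92. Serpina3b, 52.6 kb away on the other side, stood at 0.08, although no scaling and spike-in scaling put it below 0. Serpina12, Serpina5 and Serpina3a, which also flank Serpina4-ps1, were not well above background on either array. Among 14 measured genes other than serpins inside the cluster or within 500 kb of it, the median was -0.04 and the range -1.10 to 0.85. The interferon-responsive gene Ifi27l2a was the lowest of these, and Asb2 stood at -0.96 and Ifi27 at -0.62.

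**Figure D2:**
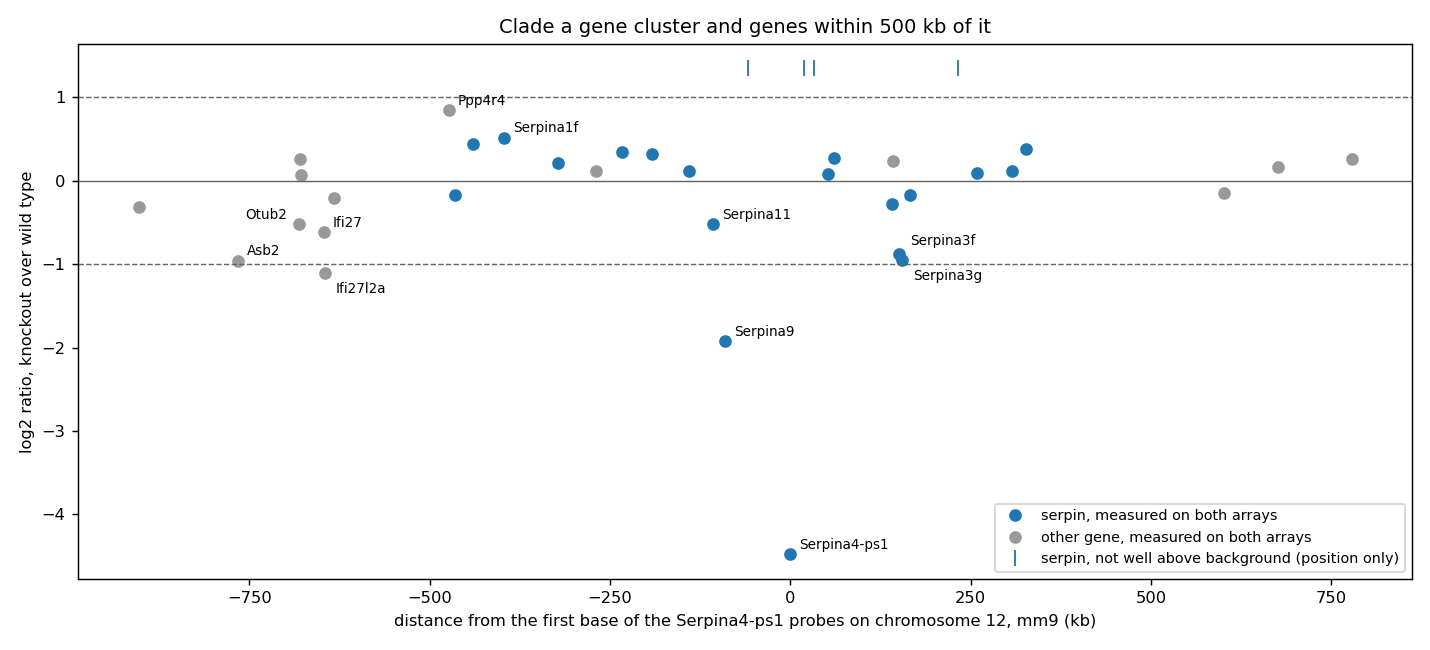
Log2 ratio of knockout over wild type (y axis) against distance in kb from the Serpina4-ps1 probes on chromosome 12 (x axis), for measured serpins (blue), other measured genes (grey) and serpins not well above background (ticks at the top, position only). Serpina4-ps1 at -4.48 and Serpina9 at -1.92 lie below neighbours that mostly stay within 2-fold.

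Serpina9, also called centerin, is a serpin known from germinal centre B cells. It read 223 units in the wild-type pool and 49.6 in the knockout pool, 3.79-fold lower, with a log2 ratio of -1.92 from 1 probe at 105234830 to 105234889 of chromosome 12 (mm9, minus strand). With a normexp background the log2 ratio was -1.05. All 4 B cell markers measured, Ms4a1, Cd79a and Cd79b among them, were lower in the knockout pool as well, with a median of -0.91 and a summed signal of 1038 against 443. Their part in the result was not tested, and in bulk tissue fewer cells of a type and less RNA per cell cannot be told apart.

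Serpina7 encodes thyroxine-binding globulin, a plasma carrier of thyroid hormone that does not inhibit proteases. It was at 1504 units in the wild-type pool and 561 in the knockout pool, 2.26-fold lower, with a log2 ratio of -1.18 from 1 probe. It remained at least 2-fold lower under all 12 alternatives. The genes of hormone transport and handling listed beside it did not pass 2-fold. Transthyretin (Ttr), another carrier made by the liver, was at 0.16, and the deiodinase Dio1 was at -0.09. Serpina6, corticosteroid-binding globulin, read 47552 and 54314 units, a ratio of 0.44 with both probes above 0. Hsd11b1, which regenerates active glucocorticoid, stood at 0.27. Angiotensinogen (Agt), a hormone precursor related to serpins in structure, was at 0.53.

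Clade a also holds the mouse expansions of alpha-1-antitrypsin, the plasma inhibitor of neutrophil elastase, and of alpha-1-antichymotrypsin. The 4 measured alpha-1-antitrypsin genes hardly differed between the pools. Serpina1e read 345836 and 317656 units, a log2 ratio of 0.12. Serpina1a was at 0.34, Serpina1c at 0.33 and Serpina1d at 0.22. All 4 lay above 0 as scaled here, while Serpina1e fell below 0 with quantile, loess, spike-in or no scaling and Serpina1d without scaling. Their probes do not separate the copies cleanly: the Serpina1a and Serpina1c probes shown here share 51 bases of which 50 are identical, and the capital in each marks the base that differs.
Serpina1a probe: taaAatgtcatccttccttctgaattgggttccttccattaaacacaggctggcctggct
Serpina1c probe: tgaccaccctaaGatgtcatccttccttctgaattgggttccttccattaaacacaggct
Signal of one copy can therefore reach the probe of the other, and the values describe the group more safely than its members. The low member Serpina1f (33.5 and 40.5 units, 0.52) was close to background. The scaled signal of the negative control spots was itself higher by 0.53 in the knockout, and its part in the ratios of dim probes was not tested.

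The Serpina3 group split. The neighbours Serpina3f and Serpina3g were lower in the knockout pool, just short of 2-fold, and the other 7 measured members lay between -0.28 and 0.38. Serpina3g, an inhibitor of cysteine proteases expressed in haematopoietic cells and responsive to interferon, read 5946 and 2606 units, a log2 ratio of -0.94 (1.92-fold lower). Serpina3f read 435 and 199 units, -0.88 (1.84-fold lower), with probes at -1.08 and -0.68. Both passed 2-fold with no scaling and with spike-in scaling. Serpina3g also passed it with loess scaling (-1.005), and Serpina3f when its brightest probe alone was used (-1.08). Serpina3k and Serpina3m, major plasma members, were at 0.09 and 0.11, and both fell below 0 with quantile, loess, spike-in or no scaling. Serpina3n, a member induced in inflammation, was at 0.38, and Serpina3c, Serpina3b and Serpina3h were at 0.27, 0.08 and -0.17. Serpina3a and Serpina3j were not well above background on either array.

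Probe placement limits the reading of 2 of these genes. The Serpina3f probe at -0.68 is placed at 105492556 on chromosome 12 (mm9), beyond Serpina3g and beside the Serpina3h probe at 105491733, and its other probe is at 105458989. The measured probes of Serpina3i lay on opposite sides of 0, at -0.57 and 0.01, the widest spread in the family. The former, on the minus strand at 105427811, shares 51 of 57 overlapping bases with the Serpina3h probe. Of 12 serpins with several measured probes, the other 11 had all probes on 1 side of 0, and the median range between probes was 0.081.

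Kupffer cell markers were lower in the knockout pool over the whole list beside these 2 genes. All 5 were below 0, with a median of -1.16 and a summed signal of 92053 against 35705, and Marco was at -1.34. The T and NK cell markers were below 0 in 4 of 4 measured, with a median of -0.79, and 3 of 4 neutrophil markers were. Hepatocyte markers had a median of 0.24 as scaled here, ran from -0.15 to 0.99, and Alb read 393769 and 392982 units. Their median was -0.0029 without scaling, 0.013 with quantile, 0.048 with loess and 0.079 with spike-in scaling. The part of these cell markers in the Serpina3f and Serpina3g values was not tested.

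The promoters of Serpina3f and Serpina3g are shown because these neighbours had similar ratios. Each 300-base window, from RefSeq (GRCm38.p6), runs from 250 bases before to 50 after the annotated start, and both lie on the plus strand, at chr12:104214294-104214593 and chr12:104235897-104236196. Capitals mark a match to the STAT palindrome TTCNNNGAA, searched on both strands.
Serpina3f promoter: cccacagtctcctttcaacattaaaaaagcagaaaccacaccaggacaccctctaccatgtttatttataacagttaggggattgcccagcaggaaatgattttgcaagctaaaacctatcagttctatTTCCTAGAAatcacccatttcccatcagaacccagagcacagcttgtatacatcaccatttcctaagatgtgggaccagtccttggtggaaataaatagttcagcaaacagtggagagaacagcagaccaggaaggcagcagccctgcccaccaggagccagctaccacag
Serpina3g promoter: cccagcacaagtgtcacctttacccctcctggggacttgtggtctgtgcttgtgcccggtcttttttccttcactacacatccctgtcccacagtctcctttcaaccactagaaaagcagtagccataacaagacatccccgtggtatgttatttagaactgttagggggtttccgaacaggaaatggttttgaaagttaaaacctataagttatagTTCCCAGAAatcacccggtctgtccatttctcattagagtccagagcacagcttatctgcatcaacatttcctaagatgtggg
The palindrome starts at base 130 of the Serpina3f window shown and base 218 of the Serpina3g window. The windows of these paralogues share other stretches too, so the 2 matches are not independent. The part of the palindrome in the ratios was not tested. Serpina3f has another, overlapping window, not shown, in which the palindrome starts at base 41. It occurred in 8.30% of all 32851 RefSeq promoter windows of this length. Genes were counted when any of their windows held a match, and the 50 serpin genes with a window had 59. Shares of genes and of windows are therefore not the same measure. The palindrome occurred in 6 of the 28 measured serpins with a window: Serpina11, Serpina1f, Serpina3f, Serpina3g, Serpina3i and Serpinb6a. Their ratios ran from -0.94 to 0.52. The HNF1 letters GTTAAT occurred in 8 of 28 and in 10 of the 50 serpin genes with a window, against 7.10% of all windows. This was the most among the motifs searched. The 8 measured genes were Serpina1a, Serpina1c, Serpina1d, Serpina1e, Serpina3c, Serpina7, Serpinb3d and Serpinb8, with ratios from -1.18 (Serpina7) to 0.99 (Serpinb8). Serpina1a, Serpina1c, Serpina1d and Serpina1e are copies in 1 paralogue group, so their matches may not be independent. The NF-kappa-B letters GGGNNTTCC occurred in 2 of 28 (Serpina3g and Serpina3i) against 5.82% of all windows. The interferon response element repeat occurred in Serpinb6a and Serpinb9 against 3.44%. A match of letters is a description and not a bound site.

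The remaining clade a members stayed within 2-fold. Serpina10, the protein Z-dependent inhibitor of clotting factor Xa, was at -0.17 with both probes agreeing to 0.016. Serpina11 was at -0.52 (20383 and 12000 units). Its 2 probes overlap in 57 bases with 53 identical, so they count as nearly 1 measurement.

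**Figure D3:**
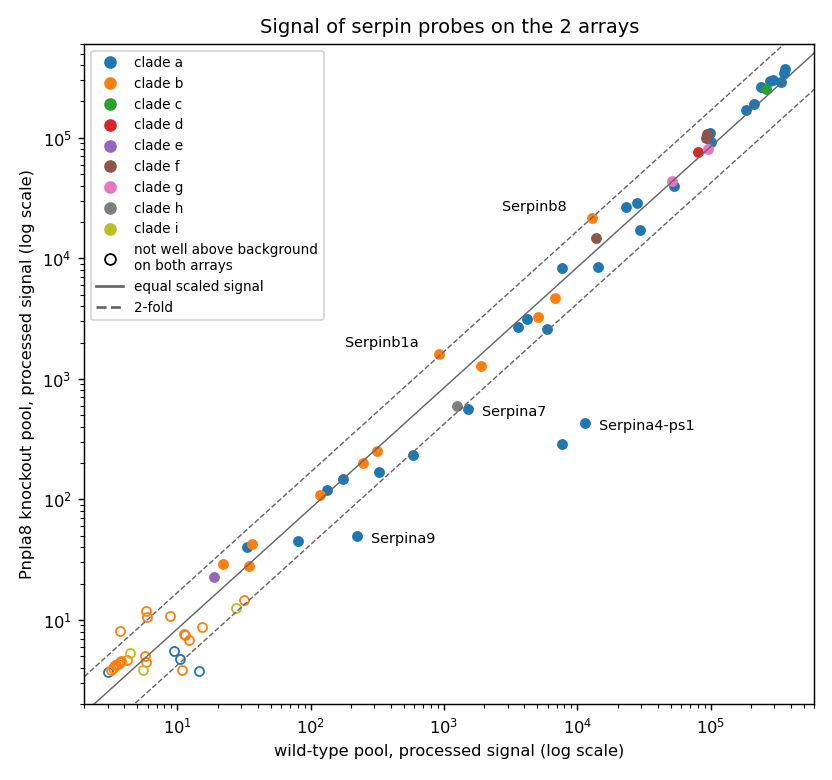
Processed signal of serpin probes in the wild-type pool (x axis) and the knockout pool (y axis), both on log scales, with filled points for probes well above background on both arrays and open points for the others. The solid line marks equal scaled signal and the dashed lines 2-fold, and the Serpina4-ps1 pair stands far below the line at 7651 and 11361 units in the wild type.

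Serpine2, protease nexin 1, an inhibitor of thrombin and uPA, was close to background at 18.7 and 22.6 units, a log2 ratio of 0.52. The probe for the plasminogen activator uPA (Plau) was well above background on the wild-type array alone (42.2 and 5.32 units, at least 1.99-fold lower), and that for tPA (Plat) was not well above background on either array. The uPA receptor Plaur was at -0.41, and plasminogen (Plg), made by hepatocytes, at 0.21. None of 8 measured genes of fibrinolysis and membrane proteolysis was 2-fold different, with a median of 0.06. The membrane proteases Prss8 and Hpn were at -0.50 and 0.33.

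Serpinh1, the collagen chaperone HSP47, does not inhibit proteases. It read 1257 and 590 units, a log2 ratio of -0.85 (1.80-fold lower), and passed 2-fold with no scaling and with spike-in scaling. Stellate cell and fibroblast markers moved the same way, with 5 of 5 below 0, a median of -0.41 and a summed signal of 9931 against 6091. Col1a1 was at -0.57, Col1a2 at -0.41 and Acta2 at -1.01. Their part in the Serpinh1 value was not tested.

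The plasma inhibitors of clotting, fibrinolysis and complement in clades c, d, f and g showed small ratios. Antithrombin (Serpinc1), the main inhibitor of thrombin and factor Xa, read 258334 and 255994 units, a ratio of 0.23. Heparin cofactor II (Serpind1) was at 0.16 (80354 and 75705 units). Antiplasmin (Serpinf2), which inhibits plasmin, was at 0.35 (92137 and 98804 units). Pigment epithelium-derived factor (Serpinf1), an anti-angiogenic member without protease inhibition, was at 0.39 (35958 and 39697 units). C1 inhibitor (Serping1) was at 0.01 (70017 and 59428 units), and its probes were within 0.0075 of each other. Without scaling, Serpinc1 and Serpind1 fell slightly below 0, at -0.01 and -0.09, and Serping1 was at -0.24.

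The listed genes of coagulation and complement also had mostly small ratios. All 12 coagulation and contact factors were measured, none was 2-fold different and the median was 0.15, with F9 at 0.32 and F10 at 0.04. The 12 lay above 0 as scaled here, but only 3 did without scaling and 6 with quantile scaling. Of the complement proteases 7 were measured, with a median of 0.06, Masp1 at 0.26 and C1ra at -0.15. Complement factor D (Cfd) was well above background on the wild-type array alone and at least 2.26-fold lower, where 9.22% of such genes had a bound of 2-fold or more.

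Clade b members are mostly intracellular, and 10 of 27 were measured on both arrays. Serpinb1a, a neutrophil and monocyte elastase inhibitor that also circulates from the liver, was the only serpin at least 2-fold higher, at 918 and 1603 units, 2.07-fold and a log2 ratio of 1.05. It rests on 1 probe at 32934693 to 32934752 of chromosome 13 (mm9, minus strand). Without scaling the ratio was 0.80 and with spike-in scaling 0.89, both under 2-fold. Its paralogues Serpinb1b and Serpinb1c were not well above background on either array.

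Serpinb8, known to inhibit furin in the test tube, came closest behind it, at 12946 and 21660 units, 1.98-fold higher with a log2 ratio of 0.99. Its single probe is shown because it consists largely of a repeat.
Serpinb8 probe: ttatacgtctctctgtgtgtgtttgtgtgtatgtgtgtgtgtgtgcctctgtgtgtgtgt
The probe holds 19 TG dinucleotides, a count that 13 of 39429 probes reach, while the median probe has 5 and no other serpin probe more than 9. The other probes with at least 15 TG dinucleotides, a limit chosen after this sequence was seen, gave ratios near the same value. There were 66 such measured probes, for 66 other genes; their median log2 ratio was 0.97, the middle 50% ran from 0.83 to 1.05, and 65 lay above 0. The median of all 25180 measured probes was 0.04. The Serpinb8 value lies within their range, and 29 of the 66 were as high or higher. The part of the repeat in the Serpinb8 value was not tested.

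The other clade b groups varied less. Serpinb6a, an intracellular inhibitor of cathepsin G, was at -0.30 (6847 and 4689 units), Serpinb6c at -0.36 and Serpinb6b at -0.04. The 3 lay below 0 as scaled here, and 1 of them moved above 0 with median scaling, with quantile scaling and with a normexp background. The probes of Serpinb6a and Serpinb6c share 55 of 59 overlapping bases, so these values are not independent. Serpinb6d was well above background on the wild-type array alone (31.8 and 14.6 units, at least 1.5-fold lower). Serpinb9, the granzyme B inhibitor of cytotoxic lymphocytes, was at -0.05 (312 and 254 units), Serpinb9e at -0.07 and Serpinb9d, near background, at 0.65 (21.9 and 29.0 units). Serpinb3c and Serpinb3d were at 0.14 and 0.48, and the latter was also dim (36.0 and 42.4 units). Granzyme B (Gzmb), the target of Serpinb9, was at -0.81 and Gzma at -0.88, while Gzmk was at 0.62. None of the 10 measured genes in the list of granule proteins, Mpo and Prf1 among them, passed 2-fold as scaled here. Their median was 0.01. Without scaling 2 of the 10 were at least 2-fold lower, and with spike-in scaling 1 was.

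The members not well above background on either array were Serpina12, Serpina3a, Serpina3j, Serpina5, Serpinb10, Serpinb11, Serpinb12, Serpinb13, Serpinb1b, Serpinb1c, Serpinb2, Serpinb3a, Serpinb3b, Serpinb5, Serpinb6e, Serpinb7, Serpinb9b, Serpinb9c, Serpinb9f, Serpinb9g and Serpini2. Their signals ran from 3.03 to 15.3 units, near the negative controls, which read 3.51 (wild type) and 4.28 (knockout). These include vaspin (Serpina12), protein C inhibitor (Serpina5), PAI-2 (Serpinb2) and maspin (Serpinb5). Clade i holds neuroserpin (Serpini1) and Serpini2, and neither was measured on both arrays. One of the 2 Serpini1 probes was well above background on the wild-type array alone, at 27.3 and 12.5 units.

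The wider machinery around the serpins also held few large ratios. In the list of endoplasmic reticulum factors that fold, export or degrade alpha-1-antitrypsin, 8 of 11 lay below 0, with a median of -0.17 and none past 2-fold. The chaperone Calr was at -0.58, Uggt1 at -0.34, Ostc at -0.23 and Edem1 at 0.28. The list's median stayed below the median of all genes under every scaling tried, though with median scaling only 6 of 11 were below 0. Of 6 measured receptors and partners that clear serpin-protease complexes, Vldlr was 2.66-fold higher (335 and 751 units, a log2 ratio of 1.41), and Lrp1, the principal clearance receptor, was at 0.12. Lrpap1, its chaperone, was at -0.29 and Sdc1 at 0.26.

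None of 22 other measured protease inhibitors of liver and plasma passed 2-fold as scaled here, with a median of 0.12. Timp1, an inhibitor of matrix metalloproteases, was the lowest at -0.91 and Tfpi, which inhibits the tissue factor pathway, was at -0.46. The highest were Slpi at 0.30 and Kng1 at 0.27. Without scaling and with spike-in scaling, 1 of the 22 was at least 2-fold lower. The median of the 22 was -0.12 without scaling, -0.051 with quantile, -0.023 with loess and -0.039 with spike-in scaling. Among 16 transcription factors and cytokine signalling genes listed as regulators of liver serpins, Socs3, a feedback inhibitor of STAT3 signalling, was 2.36-fold lower (3188 and 1139 units, -1.24). The part of the listed genes in the serpin values was not tested. The receptor subunit Il6ra was at 0.95, and Cebpb and Bcl6 were at 0.66 and 0.65. Hnf4a was at 0.23, and the median of the list was 0.10.

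**Figure D4:**
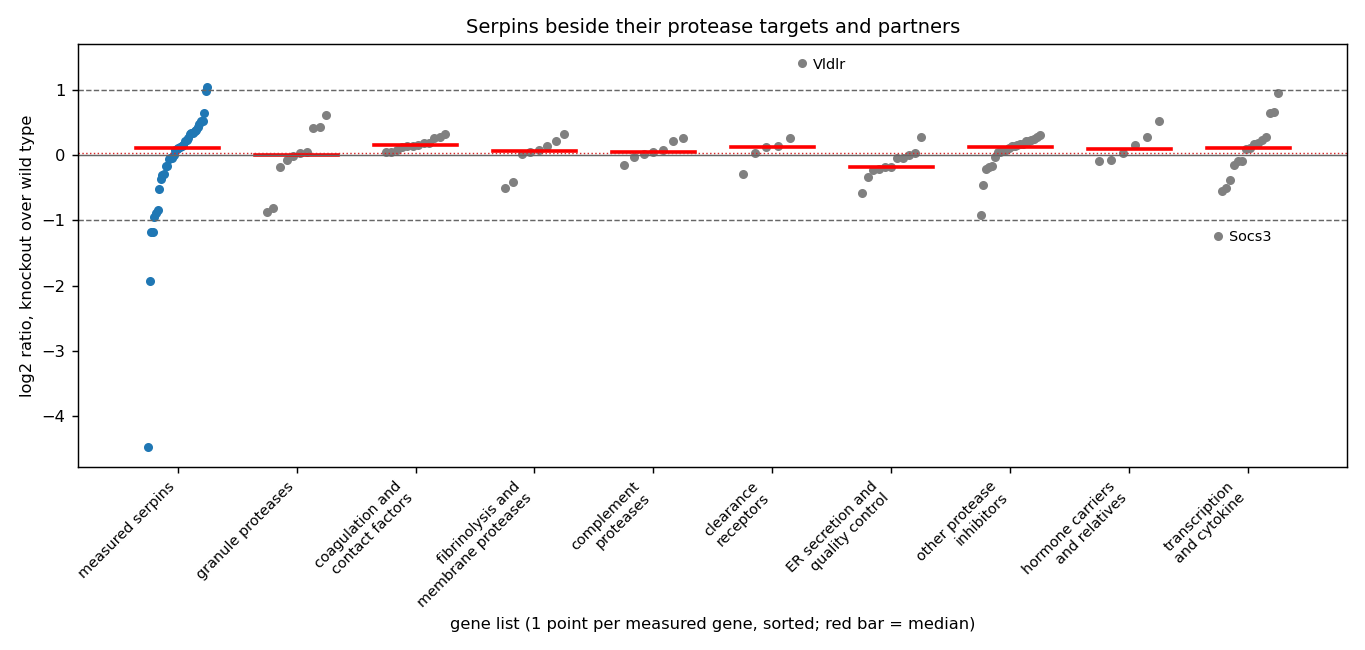
Log2 ratio of knockout over wild type (y axis) for the 38 measured serpins (blue) and the measured genes of 9 lists of protease targets and partners (grey, x axis), with 1 point per gene, a red bar at each median and a dotted line at the median of all genes. The serpin column reaches down to -4.48, and in the other columns Vldlr at 1.41 and Socs3 at -1.24 pass the dashed 2-fold lines.

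The calls at 2-fold for Serpina4-ps1 and Serpina7 held under all 12 alternatives, and that for Serpina9 under all but the filter that kept probes above the array median alone, in which it had no measured probe.

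**Figure D5:**
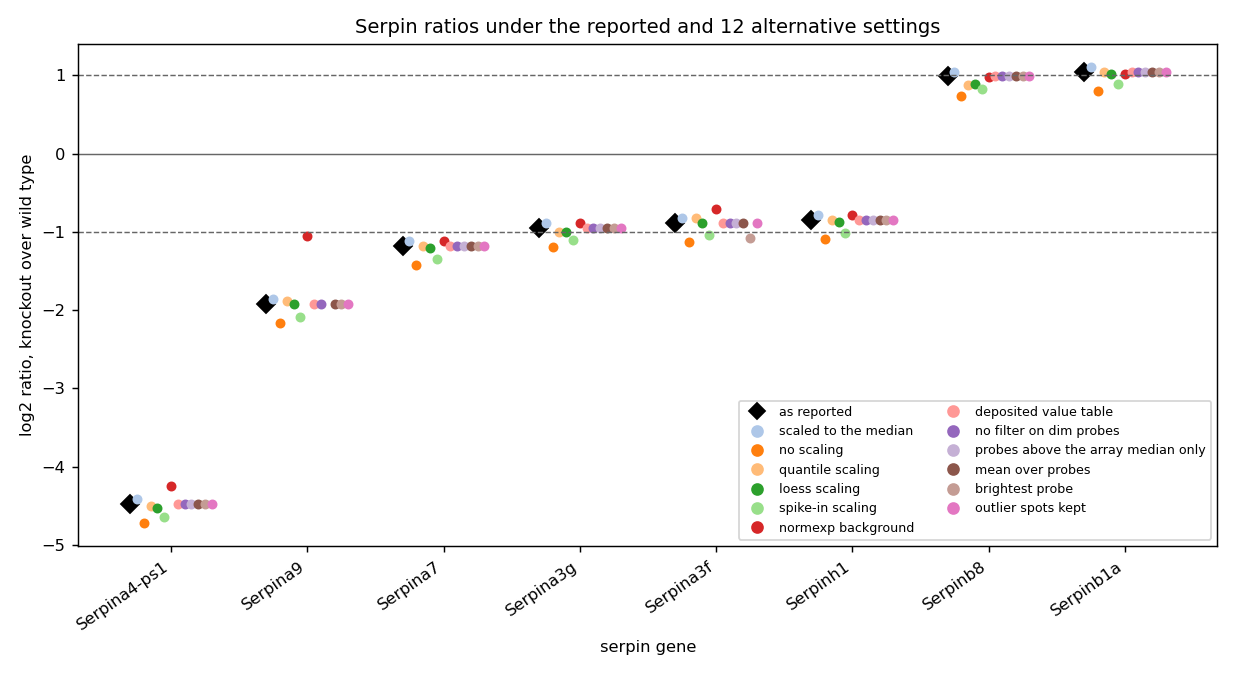
Log2 ratio of knockout over wild type (y axis) of 8 measured serpins far from 0 (x axis), as reported (black diamonds) and under 12 alternatives (coloured points). Serpina4-ps1 stays between -4.73 and -4.25 and Serpina7 below -1, while Serpina9 rises to -1.05 with a normexp background. Serpina3f, Serpina3g, Serpinh1, Serpinb1a and Serpinb8 lie on either side of a 2-fold line depending on the setting.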

How the data were processed

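Per the submitters' processing notes, the scans were quantified in Agilent Feature Extraction 11.5.1.1; the deposited scanner files hold background-subtracted intensity for each spot on a linear scale. The deposited value table holds that intensity divided by the scanner's own 75th percentile statistic (1207 wild type, 1019 knockout; column medians 0.0800 and 0.0763), so its scale is linear and not centred per gene. Of the columns with per-sample values, 0 went unmapped.

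The analysis used the scanners' processed signal as log2, less the 75th percentile of that array's non-control spots. Control spots and spots marked as outliers were left out (no serpin probe was marked) and spots of a probe were averaged. A gene's ratio is the median over probes well above background on both arrays. A gene bright on the wild-type array alone received a bound, set against the knockout array's lowest value well above background (17.9 units) or, where that was higher, the probe's own reading. Of 78 serpin probes, 75 matched a RefSeq accession and 73 carried mm9 positions. Serpin promoter windows were found for 50 genes.

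All serpins are counted. Of the genes the naming rules select, 3 are not reported here. Values on both arrays are given for members past 2-fold, for the brightest of a clade and for clades c to h. Measured members of the paralogue groups are given by their ratios, some with their signals too. Each list contributes up to 4 genes with the largest absolute ratio, with a few others named for their role. Serpinb8 was singled out after its sequence was seen. The members and gene lists were chosen with earlier results of these data known. The alternatives tried were scaling by the median, by quantiles, by loess (span 0.3), by 8 E1A spike-in controls or not at all, a normexp background with offset 50, the value table, other filters, probe summaries and fold thresholds. The steps were tested on simulated data. Tools were Python 3.11.15, pandas 2.3.3, numpy 2.4.6, statsmodels 0.14.6, matplotlib 3.10.9, R 4.3.3 and limma 3.58.1.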

Additional observations from a re-analysis of the deposited data

How the results depend on the processing

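The count of serpins at least 2-fold lower (4) was 7 with a 1.5-fold threshold, 2 at 3-fold, 7 without scaling and 7 with spike-in scaling. The count at least 2-fold higher (1) was 3 at 1.5-fold, 0 at 3-fold, 2 with median scaling (Serpinb8 joined), 0 without scaling, 0 with spike-in scaling and 3 with no filter on dim probes. The median of the measured serpins (0.10) was -0.14 without scaling, -0.0072 with quantile, -0.038 with loess and -0.061 with spike-in scaling. The clade a median (0.09) was -0.16 without scaling, -0.10 with quantile, -0.073 with loess, -0.078 with spike-in scaling and -0.043 with no dim filter. The clade b median (0.05) was -0.20 without scaling, -0.12 with spike-in scaling, 0.14 with normexp and 0.48 with no dim filter. The median of clades c to i (0.20) was -0.050 without scaling, 0.0084 with quantile and 0.035 with loess scaling. With spike-in scaling it was 0.032 and with no dim filter 0.084. No scaling and spike-in scaling shift every ratio, by -0.25 and -0.16; for the rest the cause was not tested. Over all genes, 41.1% of the calls past 2-fold were higher; the share was 50.6% with median, 33.6% with loess, 18.6% with spike-in, 13.3% with no scaling and 51.3% with normexp. The calls numbered 135 higher and 128 lower with normexp (258 and 369 as reported), and 994 and 1235 with no dim filter. No paired analysis was possible because each group has 1 array and its number follows accession order. For the same reason no replicate could be left out. The value table, the mean over probes and kept outlier spots moved no serpin ratio by over 0.095. Signal over background limits the 21 serpins not well above it on either array and the 2 with bounds alone; with normexp the Serpinb6d bound was 1.02-fold.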

Other observations

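Serpinb8 was not the sole gene read through a repeat. The 26 measured probes with at least 15 CA dinucleotides, the complement of the TG repeat, had a median log2 ratio of -0.55 between the pools, against 0.97 for the 66 probes with at least 15 TG dinucleotides other than the Serpinb8 probe. In the CA set 8 probes lay above 0 and none was 2-fold different, and in the TG set 25 passed 2-fold upward and 0 downward. These probes stand for many unrelated gene names, and 29 of the 66 TG probes had a ratio as high as the Serpinb8 probe. The limit of 15 was chosen after the Serpinb8 sequence was seen, and the cause was not tested.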
